A study of Mus musculus with 1920 samples.

Results

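Imprinted genes of embryonic growth control were followed in single Lgr5high intestinal stem cells (ISCs) of young and aged mice. The 10 genes, of 55471 in the count table, were Plagl1, Igf2, H19, Igf2r, Cdkn1c, Dlk1, Meg3, Peg3, Grb10 and Mest, matched by Ensembl identifier. The set was chosen by names, with the difference of Plagl1 between young and aged mice already known from these cells, so that all values of the members by age are given as a description and carry no test. The study compared 3 young and 4 aged mice (labelled Old), all of the B6.129P2-Lgr5tm1(cre/ERT2)Cle/J genotype, in which GFP and a tamoxifen-inducible Cre are expressed from the Lgr5 locus and GFP-high cells are sorted. The 2 ages shared this genotype, the small intestine as the tissue and the sort. The ages of the sequenced mice, and whether they received tamoxifen, were not given in the sources used here. Full-length cDNA was sequenced from 1920 single cells in plates, of which 1836, each with 1000 or more genes detected, entered the comparisons.

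An imprinted gene is expressed mainly from the copy inherited from 1 parent, as set by DNA methylation marks laid down in the germ line. Many such genes control growth before birth and are silenced in most tissues afterwards. Plagl1 (also Zac1) encodes a zinc finger transcription factor that inhibits proliferation and regulates other imprinted genes. Igf2 encodes a growth factor, H19 is the noncoding RNA of the same locus, and Igf2r encodes the receptor that clears Igf2 and carries lysosomal enzymes. Cdkn1c encodes the cyclin-dependent kinase inhibitor p57, and Grb10 an adaptor that dampens insulin and Igf receptor signalling. Dlk1, a Notch-like membrane protein, and the noncoding RNA Meg3 share a locus. Peg3 encodes a large zinc finger protein and Mest a hydrolase-like protein.

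The sequence before the start of a gene was drawn for the members on which the results turn most and for the 1 match of the Plagl1 site. RefSeq promoters (GRCm38.p6; 250 bases before to 50 after a start) matched 8 of the 10 members with 15 starts, and H19 and Cdkn1c had no entry. Plagl1 is shown because it is the member whose fitted fold change between the ages was largest, and Igf2r because it was the highest member. Capitals in these stretches mark CG dinucleotides, the sites of mammalian DNA methylation. Both lie before a RefSeq start and outside any exon of GENCODE vM21. The Plagl1 stretch, on the plus strand at chr10:13090582-13090690, lies inside the annotated gene in an intron of longer transcripts. The Igf2r stretch is the minus strand of chr17:12769707-12769956.
Plagl1: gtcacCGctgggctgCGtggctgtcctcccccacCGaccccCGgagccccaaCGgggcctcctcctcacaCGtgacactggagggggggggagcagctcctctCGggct
Igf2r: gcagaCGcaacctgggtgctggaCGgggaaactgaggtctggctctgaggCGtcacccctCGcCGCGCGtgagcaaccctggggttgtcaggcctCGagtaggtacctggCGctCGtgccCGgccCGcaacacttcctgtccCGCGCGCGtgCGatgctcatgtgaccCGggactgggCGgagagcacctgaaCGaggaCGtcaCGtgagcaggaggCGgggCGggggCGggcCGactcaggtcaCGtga
The 109 bases of Plagl1 held 7 CG dinucleotides and the 250 bases of Igf2r held 27. Over the whole 300 bases, the observed-to-expected CG ratio was 0.70 for Plagl1 and 0.91 for Igf2r, against a median of 0.38 over 32851 promoters. It reached at least 0.6 in 7 of the 15 members' promoters and in 35.8% of all promoters. The site known for the Plagl1 protein, GGGGCCCC, which reads alike on both strands, was found in 1 of the 15 promoters, that of Peg3, and in 1.08% of all promoters. It is printed in capitals within 30 bases of the minus strand of chr7:6730602-6730631, a stretch that also lies in exons of Usp29 and Gm27675.
Peg3: gactctgcttgGGGGCCCCtaacactgact
The match lay 201 to 194 bases before the Peg3 start. A match of letters is no measurement of binding, and no match says only that these letters are not in this window.

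The kept cells held between 49447464 and 134408884 reads a mouse, with median totals of 211790 to 344568 reads a cell. Each cell was assigned to the marker list, of 8 lists for cell types of the gut, whose mean log2(CPM + 1) was highest (CPM, the count scaled to 1e+06 reads in genes). A total of 1546 cells were led by ISC markers, 120 by Paneth, 91 by enterocyte, 53 by goblet, 20 by tuft, 3 by enteroendocrine and 3 by stromal markers. ISC-led cells made up 87.5% to 93.2% of the cells of the young and 71.6% to 89.4% of the aged mice, so that cells led by other lists were more frequent in 3 of the aged mice. Lgr5, the marker of the sort, had reads in 96.9% of the kept cells and stood at 335 to 454 CPM in young and 172 to 363 CPM in aged mice. Olfm4, the other defining ISC marker, had reads in 99.9% of cells.

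The members ranged from a receptor read in nearly every cell to genes with a handful of reads in the whole data set (the plot of levels per length). Compared per length, as CPM per kilobase of exon over all kept cells, Igf2r was highest at 6.19. Cdkn1c followed at 0.576, Peg3 at 0.418, Mest at 0.211 and Plagl1 at 0.0686. Grb10 stood at 0.0164, Igf2 at 0.00467, Meg3 at 0.00417 and Dlk1 at 0.00195, and H19 had no read. Among 35275 genes with reads, Igf2r lay at the percentile 81.4, Cdkn1c at 54.9, Plagl1 at 33.4 and Dlk1 at 6.67. The ranges over the 7 mice of the neighbours Cdkn1c, Peg3 and Mest overlapped, as did those of Grb10, Igf2, Meg3 and Dlk1. Apart from Igf2r, the members were rare: 1435 of the 1836 cells (78.2%) had no read of any other member, 348 had reads of 1, 40 of 2 and 13 of 3 of them.

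**Figure D1:**
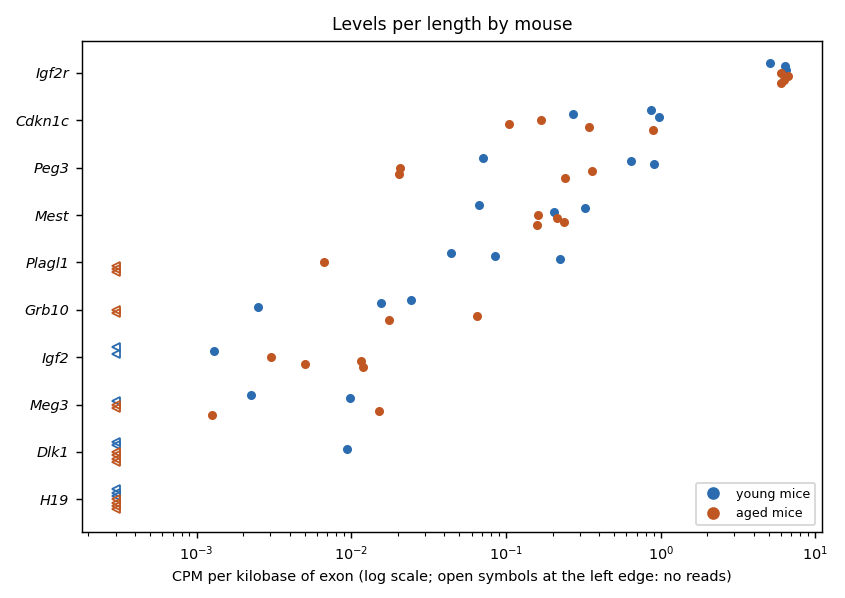
Level of each member in each mouse as CPM per kilobase of exon on a log axis, in blue for the 3 young and in orange for the 4 aged mice, with open symbols at the left edge for mice without reads. Igf2r stands apart at the top in every mouse, while H19 has no read in any.

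Plagl1, the transcription factor of the set (chr10:13060504-13131694, plus strand, GRCm38), was read almost exclusively in young mice. Its level was 0.344, 0.670 and 1.74 CPM in young mice 1, 2 and 3, from 17, 90 and 231 reads. It was 0.0518 CPM in aged mouse 1, from 3 reads of a single cell, and 0 in aged mice 2, 3 and 4. The ages did not overlap, and the lowest young mouse stood above the highest aged mouse. The mean was 0.918 ± 0.731 CPM (SD, n = 3) in young and 0.0130 ± 0.0259 CPM (SD, n = 4) in aged mice, and the fitted log2 fold change of aged over young was -6.24, a value that depends on the small count added to each library in the fit. A floor of 3 reads corresponded to 0.0228 to 0.0518 CPM in an aged mouse. In sums over cells, fewer cells with a transcript and less RNA per cell cannot be told apart, and the cells themselves were counted next.

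Reads of Plagl1 were found in 37 of 906 young cells, or 4.08% (95% exact binomial interval 2.89% to 5.59%), and in 1 of 930 aged cells, or 0.108% (0.00272% to 0.598%). By mouse, 3 of 160, 15 of 370 and 19 of 376 young cells had reads, against 1 of 189, 0 of 186, 0 of 189 and 0 of 366 aged cells. By the floor of 3 counts, 0 cells allow a share of up to 1.61%, 1.59% and 0.820% in aged mice 2, 3 and 4. The exact interval of young mouse 1, with 3 cells, ran from 0.388% to 5.38%. Floors and intervals cover counting error only. With each cell thinned to 100000 reads, which left out 36 young and 68 aged cells, 24 of 870 young cells (2.76%) and 0 of 862 aged cells had reads. The names of the cells carry 1 of 5 codes, which were taken here as sequencing lanes by inference. Within the lanes that held both ages, young mouse 2 had reads in 6 of 184 cells beside 1 of 189 cells of aged mouse 1. It had reads in 9 of 186 cells beside 0 of 186 cells of aged mouse 2. In the lane of young mouse 1, 3 of 160 cells had reads beside 0 of 189 cells of aged mouse 3. Aged mouse 4 and young mouse 3 each had a lane of their own, where lane and age cannot be told apart.

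All 38 cells with Plagl1 reads were led by ISC markers, 2.46% of such cells. None of the 290 cells led by another list had a read, but 214 of these were aged. Among young cells, 0 of the 76 led by another list had a read, which allows a share of up to 3.95% beside the 4.46% (3.16% to 6.09%) of the 830 ISC-led cells, at median totals of 256921 and 316563 reads. The exact interval of the 76 cells reached 4.74%, so that a restriction of Plagl1 to ISC-led cells was not shown at this number of cells. Among ISC-led cells alone the share in aged mice was 0.140%. Since all cells with reads were ISC-led, leaving out the others changed only the totals, and the part of cell composition was not tested. The reads were spread unevenly over cells (the plot of Plagl1 reads per cell). The highest cell, of young mouse 3, held 82 of the 341 reads, and the median of cells with reads was 4.50 reads. At a minimum of 5 reads, 19 young and 0 aged cells remained, and at 10 reads 8 young and 0 aged cells. In the ISC-led cells of each mouse divided by the mean of 34 cell cycle genes, 14 of 513 cells of the lowest tercile, 15 of 520 of the middle and 9 of 513 of the highest had Plagl1 reads, or 2.73%, 2.88% and 1.75%. The level was 1.13, 0.414 and 0.291 CPM, and the cell with 82 reads was in the lowest tercile. Plagl1 was below the filter on low counts of this comparison, and without the filter the log2 fold change of the highest over the lowest tercile was -1.51 ± 1.13 (edgeR adjusted p = 0.631).

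**Figure D2:**
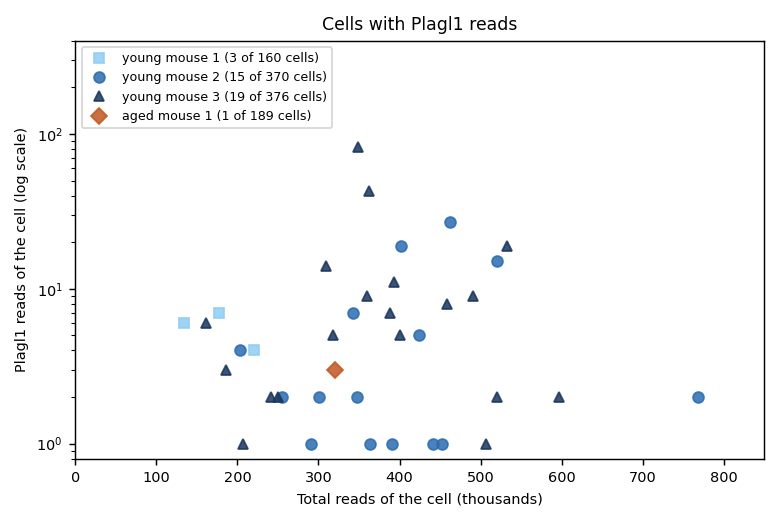
Plagl1 reads of each of the 38 cells with reads (log axis) against the total reads of the cell (in units of 1000 reads), with 1 symbol a mouse. Cells of the 3 young mice reach 82 reads, while the single aged cell, of aged mouse 1, has 3.

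Igf2 (chr7:142650766-142666816, minus strand) and H19 (chr7:142575529-142578143, minus strand), the ligand and its noncoding neighbour, were close to absent. H19 had no read in any of the 1836 cells, which allows a share of up to 0.163% of cells. Igf2 had 17 reads in 12 cells. Aged mice 1 to 4 held 1, 4, 2 and 9 of them (0.0173, 0.0660, 0.0287 and 0.0685 CPM), and young mice 1, 2 and 3 held 0, 1 and 0 (0.00744 CPM in young mouse 2). The ages thus did not overlap, with the aged mice higher, but no mouse had more than 9 reads, and 2 of the 4 aged mice were below 3 reads. Of the 12 cells, 11 were led by ISC markers. The 12 cells were deep, with a median total of 520755 reads against 305492 over all kept cells. With each cell thinned to 100000 reads, 4 of 862 aged and 0 of 870 young cells had Igf2 reads. GENCODE places 62.8% of the exon bases of Igf2 also in Gm49394, a gene on the same strand with 1 read in all, and reads that fall on both are lost or assigned as the counting rules of the authors decided.

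Igf2r, the receptor (chr17:12682406-12769664, minus strand), was the one abundant member and was level between the ages. It stood at 47.7, 59.0 and 60.6 CPM in young mice 1, 2 and 3, and at 55.5, 62.0, 58.0 and 55.8 CPM in aged mice 1 to 4. The means were 55.8 ± 7.03 CPM (SD, n = 3) and 57.8 ± 2.99 CPM (SD, n = 4), and the ranges overlapped. Reads were found in 1634 cells (89.0%), from 81.2% to 92.3% of the cells of a mouse. Airn, the noncoding RNA that runs antisense to Igf2r and is known to silence 1 of its copies, stood at 17.9 to 23.6 CPM in young and 18.3 to 24.4 CPM in aged mice and had reads in 64.8% of cells. The annotated exons of Igf2r and Airn share no base, but the 2 genes overlap on opposite strands. Reads from unspliced RNA of 1 gene may thus be counted for the other, depending on the strand setting, which was not given.

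The growth inhibitors Cdkn1c (chr7:143458339-143461050, minus strand) and Grb10 (chr11:11930508-12038683, minus strand) varied among mice of the same age by more than the ages differed. Cdkn1c stood at 1.76, 0.551 and 2.01 CPM in young mice 1, 2 and 3, and at 0.345, 0.215, 0.702 and 1.81 CPM in aged mice 1 to 4. Aged mouse 4 was as high as the upper young mice, and the ages overlapped. Reads were in 42 of 906 young cells (4.64%) and in 46 of 930 aged cells (4.95%), and a single cell of aged mouse 4 held 116 of its 238 reads. Of the exon bases of Cdkn1c, 30.7% lie opposite the antisense gene Gm44732, which had 230 reads in all. Grb10 had 95 reads in 21 cells. It stood at 0.222, 0.141 and 0.0226 CPM in young mice and at 0, 0, 0.588 and 0.160 CPM in aged mice, so that the ages overlapped and the aged mice spanned a wider range than the young. In aged mouse 3, 31 of the 41 reads came from 1 cell.

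Dlk1 (chr12:109452823-109463336, plus strand) and Meg3 (chr12:109541001-109571726, plus strand), which share a locus, were both at the limit of detection. No cell had reads of both, but 2 and 21 cells with reads are too few for a shared cell to be likely. Dlk1 had 7 reads in 2 cells of young mouse 3 and none in the other 6 mice. Meg3 had 48 reads in 21 cells, at 0.0404, 0.179 and 0 CPM in young mice 1 to 3 and at 0, 0, 0.272 and 0.0228 CPM in aged mice 1 to 4. Young mouse 3 and aged mice 1 and 2 had none, so both ages held mice without a read. Of the 21 cells, 11 were from aged mouse 3, and 3 of these 11 were the only cells led by stromal markers, at a median total of 14095 reads. That list holds Vim and Sparc but also vessel genes such as Pecam1. Pecam1 stood at 4.80 CPM in aged mouse 3 and at 0.0345 to 0.662 CPM in the other mice. Meg3 and Mest had reads in 3 of the 3 stromal-led cells and Grb10 in 1, at 69.8, 140 and 46.5 CPM, from only 3, 6 and 2 reads. Stromal markers summed to 24.3 CPM in aged mouse 3 and to 1.99 to 8.01 CPM in the other 6 mice, with 10 of the 12 markers read and Col3a1 and Lum at 0 in aged mouse 3. The part of other cell types in these reads was not tested. Without the 3 cells Meg3 was at 0.230 CPM and Grb10 at 0.559 CPM in that mouse. Of the 21 cells with Meg3, 13 also had Mest reads (61.9%, against 10.1% of all cells) and 5 had Grb10 reads (23.8%, against 1.14%). In aged mouse 3, the source of 11 of the 21 cells, these shares were 16.9% for Mest and 4.23% for Grb10, the highest of any mouse. The part of this mouse and of the stromal-led cells in the joint reads was not tested. The 5 cells with Meg3 and Grb10 made up 23.8% of the 21 cells with Grb10, and the 13 with Meg3 and Mest made up 7.03% of the 185 cells with Mest.

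Peg3 (chr7:6703892-6730431, minus strand) and Mest (chr6:30723547-30748465, plus strand), both expressed from the paternal copy, differed in how their reads were spread. Peg3 stood at 0.951, 8.58 and 12.0 CPM in young mice 1, 2 and 3, and at 0.276, 4.82, 0.272 and 3.22 CPM in aged mice 1 to 4. Young mice 2 and 3 were the highest of all, while young mouse 1 lay within the range of the aged mice. Reads were in 73 of 906 young cells, or 8.06% (6.37% to 10.0%), and in 27 of 930 aged cells, or 2.90% (1.92% to 4.20%). After thinning the shares were 7.24% and 2.20%. By mouse the shares without thinning were 4.38%, 8.92% and 8.78% in young and 2.65%, 3.23%, 2.12% and 3.28% in aged mice. These did not overlap, although the interval of young mouse 1 (1.78% to 8.81%) held all 4 aged values. With thinning the ages overlapped, at 2.74% in young mouse 1 and 3.23% in aged mouse 4. Single cells carried many of the reads: 1 cell held 238 of the 292 reads of aged mouse 2 and 214 of the 423 of aged mouse 4 came from another. The highest cell of all held 538 of the 1596 reads of young mouse 3, and it was led by enteroendocrine markers. Mest, by contrast, was thinly spread, with 529 reads in 185 cells and a median of 2.00 reads a cell. It stood at 0.263, 1.29 and 0.807 CPM in young and at 0.639, 0.842, 0.932 and 0.632 CPM in aged mice, where the aged mice lay inside the range of the young. Copg2, on the opposite strand, shares 23.1% of the exon bases of Mest and had 22336 reads.

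**Figure D3:**
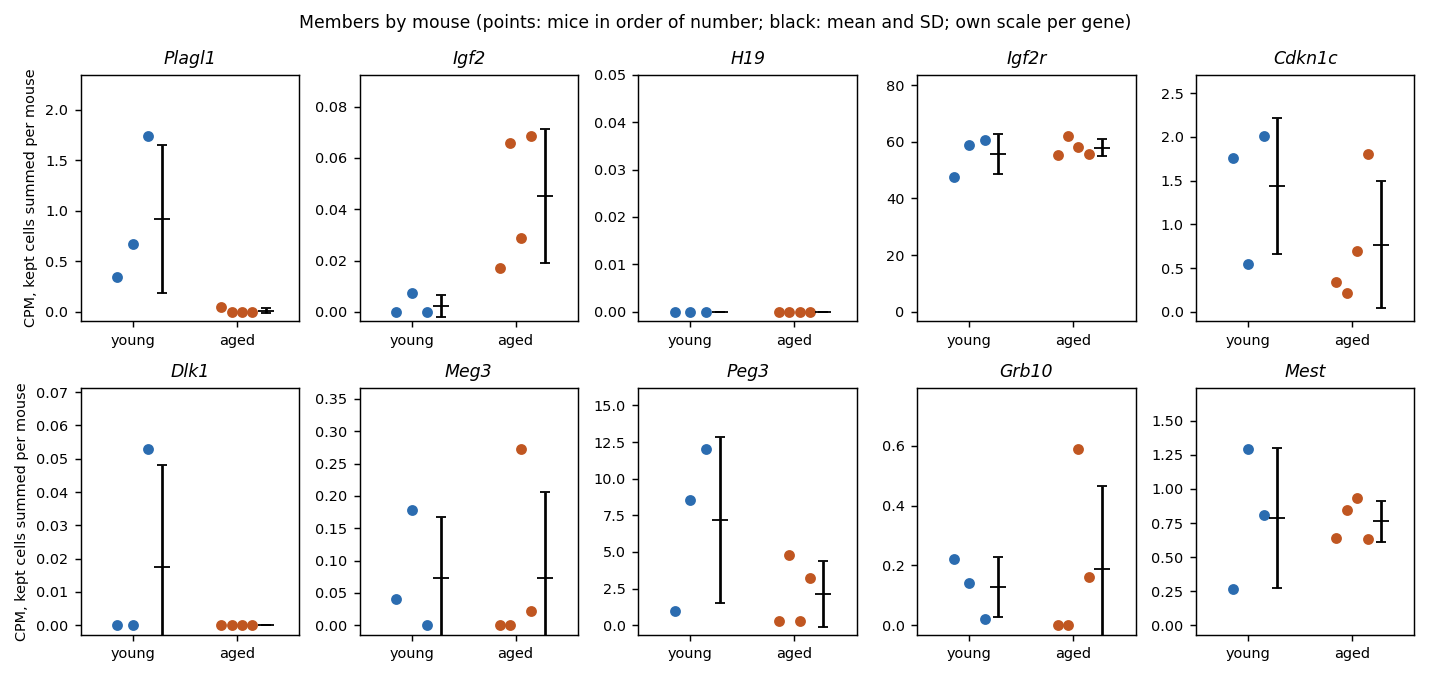
CPM of each member in the 3 young (blue) and 4 aged (orange) mice, each gene on its own linear scale, with the mean and SD in black. Plagl1 and Igf2 are the 2 members whose ages do not overlap, in opposite directions, and Igf2 reaches no more than 0.0685 CPM.

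Counted over the set, 6 of the 10 members passed the filter on low counts in the fit of aged against young mice, and Igf2, H19, Dlk1 and Meg3 did not. Of the 6, 1 had values that did not overlap between the ages, Plagl1, with the aged lower. Over all 20957 genes tested, 5.62% did not overlap in either direction and 3.10% had the aged mice lower. Among the 4 below the filter, Igf2 did not overlap either, but the share over all genes below the filter was not counted. The median log2 fold change of the 6 was -0.41 against 0.01 over all genes, with 3 above and 3 below 0. They were 0.11 for Igf2r, 0.01 for Mest, 0.67 for Grb10, -0.83 for Cdkn1c and -1.68 for Peg3, beside that of Plagl1. Since Plagl1 put the set together, nothing follows from these counts for the set.

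Genes of related function were examined as lists with the same fit, the quasi-likelihood test of edgeR with p-values adjusted over all genes by Benjamini-Hochberg, which called 0% of the 20957 genes at an adjusted p of 0.05 (5.24%, or 1098, had an unadjusted p under 0.05; DESeq2 called 177). Of 59 other imprinted genes 37 were tested, and 3 of these (8.11%) did not overlap, all with the aged mice lower. Nespas, an antisense RNA of the imprinted Gnas locus, had 27, 134 and 61 reads in young mice 1 to 3 (0.546, 0.997 and 0.460 CPM) and none in the 4 aged mice. It was found in 25 of 906 young and 0 of 930 aged cells, which allows a share of up to 0.323%, and had an adjusted p of 0.117 in edgeR and of 4.84e-06 in DESeq2. Since 31.4% of its exon bases lie opposite Gnas, a gene of 122 CPM, its reads depend on the strand setting of the counting, which was not given in the sources used here. Ppp1r9a, a neuronal scaffold protein gene, stood at 74.7 to 87.5 CPM in young and 51.8 to 65.1 CPM in aged mice (edgeR adjusted p = 0.840), and Slc38a4, an amino acid transporter gene, at 7.87 to 9.37 and 2.65 to 7.14 CPM (edgeR adjusted p = 0.999). Slc22a3 and Mcts2 had unadjusted p-values of 0.0265 and 0.0390 in edgeR with log2 fold changes of 1.03 and 0.70, and adjusted p-values of 0.854 and 0.910. The median log2 fold change of the 37 was 0.08.

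Of the genes around the Igf receptors, 22 of 29 were tested, and 1 of these (4.55%) was without overlap. Their log2 fold changes had a median of -0.06. The 1 gene was Foxo1, the transcription factor restrained by insulin and Igf signalling, at 11.4, 13.9 and 10.2 CPM in young and 31.2, 16.2, 13.3 and 14.4 CPM in aged mice (edgeR adjusted p = 0.920), whose ages were apart after TMM scaling but overlapped in CPM of total reads. The relatives of Plagl1, Plag1 and Plagl2, both overlapped, at 2.91 to 8.64 and 70.4 to 73.6 CPM in young and at 0.573 to 6.67 and 45.7 to 76.7 CPM in aged mice. Of the kinase inhibitors related to Cdkn1c, 5 of 6 were tested, all 5 with log2 fold changes above 0 and a median of 0.67, against 0.01 over all genes. Cdkn2c did not overlap (4.99 to 6.51 against 7.11 to 13.6 CPM, edgeR adjusted p = 0.964), or 20.0% of the 5 against 5.62% of all genes tested. These sums hold all cells of a mouse. In the fits below, Cdkn1a and Cdkn2b were higher in Paneth-, enterocyte- and goblet-led than in ISC-led cells. ISC-led cells made up only 75.3%, 76.7% and 71.6% of the cells of aged mice 2, 3 and 4, and the part of cell composition was not tested. None of the 16 tested genes of imprint control, such as Dnmt1, Dnmt3a, Tet1 and Trim28, was without overlap, and their median log2 fold change was -0.03.

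Whether the members differ between kinds of cells was a separate question, which the choice of the set did not use. Counts were summed per mouse and class, the classes being set by marker genes that hold no member, and compared with the ISC-led cells of the same mice, with the mouse as a block. Only Igf2r, Cdkn1c, Peg3 and Mest passed the filter on low counts in the Paneth, enterocyte and goblet comparisons. Igf2r was higher relative to other genes in Paneth-led cells (120 cells in 7 mice), with a log2 fold change of 1.04 ± 0.18 (SE from the F statistic; edgeR adjusted p = 0.000858). It was 1 of the 4 tested members called there, where 15.0% of all 16577 genes were called under TMM. This direction rested on the scaling, since under scaling by total reads the log2 fold change of Igf2r was -0.13 (edgeR adjusted p = 0.570). The median of all genes then fell by 1.28 on the log2 scale against 0.12 under TMM, so that Igf2r stood above the median gene by 1.15 and by 1.16. In CPM of total reads Igf2r stood at 43.1, 36.3 and 39.0 in Paneth-led cells of young mice 1 to 3 beside 47.6, 60.0 and 61.5 in their ISC-led cells. In aged mice 1 to 4 it stood at 63.6, 61.4, 63.6 and 54.8 beside 53.7, 61.0, 50.3 and 54.1. Peg3 had a log2 fold change of -1.59 ± 0.88 in Paneth-led cells (edgeR adjusted p = 0.252), which became -2.66 with an edgeR adjusted p of 0.00396 under total reads, where 72.2% of all genes passed and the median gene had fallen too. Its 21 reads came from 5 of the 120 cells.

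In goblet-led cells (43 cells in 4 mice) 0 of the 4 members passed in edgeR, where 2.60% of genes did. Igf2r came nearest, with a log2 fold change of 0.86 ± 0.21 (edgeR unadjusted p = 0.00223, adjusted p = 0.0700), and was the 1 member called by DESeq2 (adjusted p = 0.00370), which called 7.39% of genes there. It was at 111, 102 and 93.6 CPM in goblet-led cells of aged mice 2, 3 and 4 and at 68.9 CPM in those of young mouse 3, above the ISC-led cells in all 4. The mice with 3 or 4 goblet-led cells, which were not in the fit, stood at 114 CPM (aged mouse 1), 39.8 CPM (young mouse 1) and 57.0 CPM (young mouse 2), and young mice 1 and 2 were below their ISC-led cells. In enterocyte-led cells (85 cells in 5 mice) 0 of the 4 members passed in edgeR, at an unadjusted p under 0.05 or in DESeq2, where edgeR called 20.4% and DESeq2 26.8% of genes. Igf2r had a log2 fold change of 0.20 ± 0.20 (edgeR adjusted p = 0.511), which was -0.11 under total reads. The other log2 fold changes ran from -0.54 for Cdkn1c, with an SE of 0.95, to 0.38 for Mest, with an SE of 0.74, so that differences of this size could not be seen for the rare members.

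The genes related to the members were counted in the same fits, each list against the share of all genes called. Of the kinase inhibitors related to Cdkn1c, 2 of 5 were higher in each of the 3 classes and 0 lower. These were Cdkn1a (p21), by 2.28, 2.94 and 1.58 on the log2 scale in Paneth-, enterocyte- and goblet-led cells, and Cdkn2b (p15), by 4.13, 8.16 and 5.19, with edgeR adjusted p-values from 2.58e-07 to 0.0436. Around the Igf receptors, 3 of 20 genes were higher and 3 lower in Paneth-led, 0 and 5 in enterocyte-led and 0 and 2 in goblet-led cells. Irs1, the adaptor that relays the insulin and Igf receptors, fell by 2.96 in enterocyte-led cells (edgeR adjusted p = 0.00297) and by 3.79 in goblet-led cells (edgeR adjusted p = 0.0260) on the log2 scale, and Igf1r, the signalling receptor of Igf2, fell by 1.17 in enterocyte-led cells (edgeR adjusted p = 0.00992). Of the other imprinted genes, 4 of 31 were higher and 4 lower in Paneth-led, 3 of 31 higher and 6 lower in enterocyte-led and 0 of 32 higher and 4 lower in goblet-led cells. Ascl2 was among the lower in each class, but it is one of the ISC markers that set the classes. Kcnq1ot1, the noncoding RNA of the Cdkn1c domain, fell by 1.22 in enterocyte-led (edgeR adjusted p = 0.00148) and by 1.06 in goblet-led cells (edgeR adjusted p = 0.00871). Of the genes of imprint control, 0 of 16 were higher and 1 lower in Paneth-led, 1 higher and 5 lower in enterocyte-led and 0 changed in goblet-led cells, where 0 had an unadjusted p under 0.05 in edgeR. Plag1 and Plagl2 passed in no class and not by cell cycle. These counts are under TMM. With scaling by total reads, 0 of the other imprinted genes were higher and 25 lower in Paneth-led cells, 0 and 14 of the genes around the Igf receptors, 0 and 16 of those of imprint control, 2 and 3 of the kinase inhibitors and 0 and 2 of the Plagl1 relatives. Of all genes called in Paneth-led cells, 51.4% were higher under TMM and 3.43% under total reads, which in enterocyte-led cells were 51.3% and 24.9% and in goblet-led cells 80.5% and 66.7%.

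Cdkn1c stood out in classes too small to be fitted. It had reads in 7 of the 20 tuft-led cells, or 35.0% (15.4% to 59.2%), and in 2 of the 3 enteroendocrine-led cells, against 57 of 1546 ISC-led cells, or 3.69% (2.80% to 4.75%). The median total was 337606 reads in tuft-led and 317873 reads in ISC-led cells. Pooled over cells the level was 10.3 CPM in tuft-led and 0.971 CPM in ISC-led cells. Among the 6 mice with tuft-led cells, young mice 1 and 3 stood at 67.4 and 30.4 CPM and aged mice 1 and 4 at 10.7 and 6.93 CPM, from 2, 2, 2 and 8 cells, while aged mice 2 and 3, with 1 and 5 cells, had none. Peg3 had reads in 8 of the 53 goblet-led cells, or 15.1% (6.75% to 27.6%), against 5.11% (4.07% to 6.33%) of ISC-led cells, but its level in goblet-led cells was not higher in the fit (log2 fold change -1.12 ± 1.06, edgeR adjusted p = 0.710). These cells come from few mice and are no replicates, and the intervals cover counting error only.

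**Figure D4:**
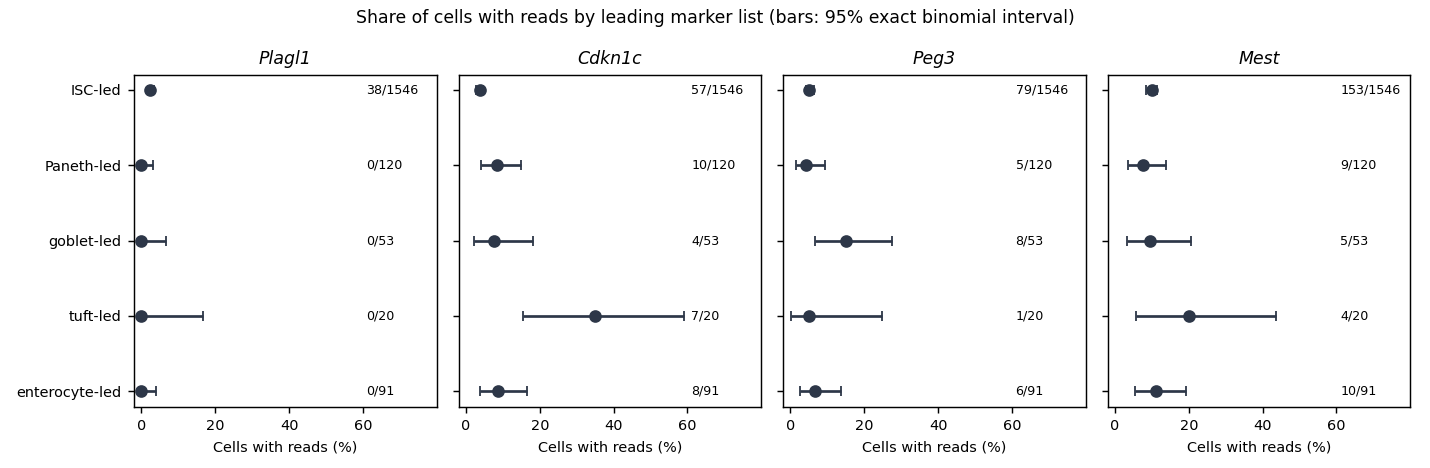
Share of cells with reads of Plagl1, Cdkn1c, Peg3 and Mest by the marker list that led the cell, with 95% exact binomial intervals and the counts of cells. All 38 cells with Plagl1 reads were ISC-led, but both ages are pooled here and 214 of the 290 other cells were aged, and Cdkn1c reached 35.0% in tuft-led cells.

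Plagl1 and Cdkn1c are known as brakes on proliferation, so the members were also compared between ISC-led cells in the highest and the lowest tercile of cell cycle genes in each mouse. Of the members, Igf2r, Peg3 and Mest passed the filter on low counts and 0 of the 3 passed the test in edgeR, where 18.6% of 16025 genes did. None had an unadjusted p under 0.05 in edgeR, and in DESeq2, which called 25.5% of genes, 0 were called and Peg3 had an unadjusted p of 0.0396. The log2 fold change of high over low was 0.11 ± 0.15 for Igf2r (edgeR adjusted p = 0.673), 0.03 ± 0.48 for Mest (adjusted p = 0.973) and -1.99 ± 1.21 for Peg3 (adjusted p = 0.294). Cdkn1c, below the filter between terciles, had reads in 8 of 513 cells of the lowest tercile (1.56%), 25 of 520 of the middle (4.81%) and 24 of 513 of the highest (4.68%), at 0.276, 1.32 and 1.31 CPM. It did not pass the test in the fits that took it in, with a log2 fold change of 0.51 ± 0.74 between the cells above and below the median of each mouse (edgeR adjusted p = 0.720) and of 1.16 ± 0.87 between terciles without the filter (edgeR adjusted p = 0.627). By the same fit the list of kinase inhibitors had 2 of 4 tested genes higher in cycling cells, Cdkn2d by 4.38 (edgeR adjusted p = 4.74e-05) and Cdkn2c by 2.41 (edgeR adjusted p = 0.00743) on the log2 scale. Of the genes of imprint control 4 of 16 were higher, among these Uhrf1, a partner of the maintenance methyltransferase, with a log2 fold change of 3.61 (edgeR adjusted p = 0.00224), Kdm1b with 1.25 (edgeR adjusted p = 9.39e-05) and Dnmt1, that methyltransferase, with 1.51 (edgeR adjusted p = 0.000794), and 3 were lower. Around the Igf receptors 1 of 20 was higher, the adaptor gene Shc1, and 3 were lower. Of 33 other imprinted genes 2 were higher and 3 lower, among these Kcnq1ot1 with a log2 fold change of -0.69 (edgeR adjusted p = 0.000198).

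Few cells held reads of Plagl1 together with a member other than Igf2r. Of the 38 cells with Plagl1 reads, 34 had Igf2r reads (89.5%, against 89.0% of all cells), 4 had Peg3 reads (10.5%, against 5.45%), 3 had Cdkn1c reads (7.89%, against 4.79%) and 2 had Mest reads (5.26%, against 10.1%). One had Dlk1 reads, and Igf2, Meg3 and Grb10 were in none. Over cells within the 4 mice with Plagl1 reads, the mean correlation of log2(CPM + 1) with Plagl1 lay between -0.0348 for Mest and 0.0431 for Dlk1. The value of Dlk1 came from young mouse 3 alone, the only mouse with Dlk1 reads. The 5 of 14765 genes most like Plagl1 by this measure were F3 (0.244), Arhgap10 (0.201), Fzd3 (0.199), Cldn4 (0.173) and Gm23833 (0.171), a small RNA annotated within the span of Airn. In the 2 mice with at least 10 cells with Plagl1, r was 0.202 and 0.142 for Fzd3, a Wnt receptor gene. It was lower than the mean for F3, at 0.145 and 0.0910, and below 0 for Arhgap10, at -0.0694 and -0.0718, so that the places of both genes rested on the mice with 1 or 3 such cells. In counts this sparse these values are a description of few cells that share library depth.

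**Figure D5:**
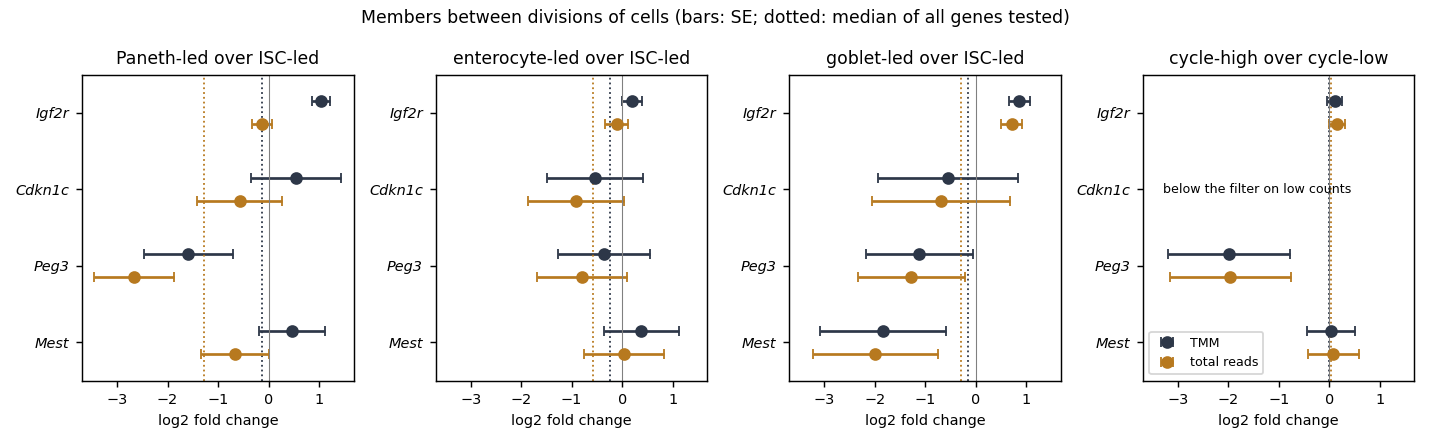
Log2 fold change with SE of the members that passed the filter, for Paneth-, enterocyte- and goblet-led over ISC-led cells and for cycle-high over cycle-low cells, under TMM (dark) and total-read scaling (ochre). Dotted lines mark the median of all genes; Igf2r lies to the right of it by 1.16 and 1.15 in Paneth-led cells under the 2 scalings.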

How the data were processed

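Single Lgr5high cells were profiled from 3 young and 4 aged mice. The authors aligned the reads to GRCm38 and counted them per gene, with HISAT2 and HTSeq per the submitters' processing notes (versions, annotation and strand setting not given in the sources used here), and deposited raw counts per gene and cell, without unique molecular identifiers. Reads are thus not independent molecules, and intervals and floors (3 reads) cover counting error only. The 84 cells in which under 1000 genes were detected did not enter. Counts were summed per mouse, the replicate, and tested with edgeR 4.0.16 (TMM, filterByExpr, quasi-likelihood F test, Benjamini-Hochberg adjustment, threshold 0.05; SEs derived from the log2 fold change and the F statistic), limma 3.58.1 being loaded by it. Alternatives used DESeq2 1.42.0, no filter, other cells, blocks and single mice left out. The scripts were tested on simulated data. Shares carry exact Clopper-Pearson 95% intervals (scipy 1.17.1). Annotation was GENCODE vM21. Of 55471 identifiers 55144 had a symbol.

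Cell classes and cycle terciles came from marker lists scored as mean log2(CPM + 1); in 54 cells the 2 highest lists differed by under 0.5. No doublet caller was run. The members, lists and tests were chosen with earlier results of these data known. Of each list, genes without overlap between the ages or with an unadjusted p under 0.05 were named, at most 8, besides up to 5 genes a list passing in a class or cycle comparison and the 5 most like Plagl1. Non-overlap was judged on TMM-scaled CPM, and printed levels are CPM of total reads. The 3 aged and 3 young mice that share a number were not paired.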

Additional observations from a re-analysis of the deposited data

Results flagged for a closer look

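Among the 4 aged mice, single animals stood far from the others for 3 of the 13 genes with at least 10 reads that were examined. The limit used is passed by about 5% of groups by chance. That rate does not apply here, since several of the genes, Foxo1 and Cdkn2c among them, were named for their values in these same mice. Meg3 was at 0.272 CPM in aged mouse 3 against 0 to 0.0228 CPM in the other aged mice, the mouse that also held the 3 cells led by stromal markers, and their part in the whole was not tested beyond the level without them. Foxo1 was at 31.2 CPM in aged mouse 1 against 13.3 to 16.2 CPM. Cdkn2c was at 13.6 CPM in aged mouse 3 against 7.11 to 7.44 CPM.

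The ratio of Igf2r in Paneth-led over ISC-led cells, in CPM of total reads, was below 1 in each of the 3 young mice and above 1 in each of the 4 aged mice. The log2 ratios were -0.15, -0.73 and -0.66 in young mice 1 to 3 and 0.24, 0.01, 0.34 and 0.02 in aged mice 1 to 4, and the means differed by 0.66. This difference was not tested. Relative to the median gene of the same mouse the ratios were 1.19, 0.63 and 0.49 in young and 2.01, 0.80, 1.54 and 0.97 in aged mice, above 0 in all 7 and overlapping between the ages.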

How the results depend on the processing

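Of the members, Plagl1 was lower in aged mice in each of the fits run. Its fitted log2 fold changes ran from -9.46, without aged mouse 1, to -5.05, with the inferred sequencing lane as a block. Cdkn1c (-1.74 to -0.50) and Peg3 (-2.48 to -1.05) stayed below 0 and Igf2r (0.01 to 0.18) above 0, while Grb10 (-1.65 to 1.30) and Mest (-0.38 to 0.52) took both signs. The edgeR count of 0 genes called between the ages became 177 with DESeq2, 22 without the filter on low counts and 1 with the lane as a block. With single mice left out it ran from 0 to 8 (8 without aged mouse 1, 1 each without aged mouse 4 and young mouse 1). Of the members that passed the filter, which leaves out Igf2, the number without overlap ran from 1 to 2 with single mice left out, since Peg3 did not overlap without young mouse 1. With fewer mice the ages lie apart more easily, and the share over all genes was not counted for these fits, so nothing follows for Peg3. In goblet-led cells DESeq2 called 1 member, Igf2r, where edgeR called 0, and 1268 genes in all against 447 (721 without the filter). Genes called in Paneth-led cells rose from 2492 to 11970 under total-read scaling, where Igf2r was no longer called and Peg3 was, and those in enterocyte-led cells from 3402 to 5282. With single mice left out the counts ran from 1614 to 2373, from 1815 to 4170 and from 239 to 548 in Paneth-, enterocyte- and goblet-led cells. The share of cells with Plagl1 reads was 2.76% in young and 0% in aged mice after thinning, an alternative chosen after seeing the data, as were total-read scaling and the removal of stromal-led cells. The mice of equal number did not deviate together (r = -0.0172, 0.106 and -0.11), so the numbers do not pair them. The fit with the replicate number as a block, in which aged mouse 4 has no partner and adds nothing to the age term, called 0 genes. At these depths 3 reads set the limit for the rare members.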
